A study of Mus musculus with 17 samples.

Results

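The genes described here are 34 markers of the endothelial cells of the liver, the cells that line its blood vessels. They were read as a measure of endothelial RNA in libraries made from FACS-sorted mouse hepatocytes, the metabolic cells that make up most of the liver. Members were found by matching Ensembl identifiers to the listed gene symbols, and all 34 were among the 23461 genes of the count table. They fall into 17 genes shared by endothelial cells of most tissues, 9 genes of the fenestrated liver sinusoidal endothelium, 4 secreted signals that liver endothelium sends to hepatocytes, and 4 genes of larger vessels or capillaries.

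The 17 libraries came from male mice of 2 to 3 months in 4 groups. Yap/Taz KO mice that received CCl4 gave 3 libraries and untreated Yap/Taz KO mice gave 4. Wild-type mice that received CCl4 gave 5 libraries and untreated wild-type mice gave 5. CCl4, a liver toxin that injures the hepatocytes around the central vein, was given at 1 ug/g in 7 doses spaced 3 days apart, and cells were taken 3 days after the final dose. Yap and Taz are transcriptional coactivators of the Hippo pathway, and Taz is encoded by Wwtr1. Which strain and alleles were used, what deleted the genes and in which cells is not given in the sources used here, and the untreated mice are not described as vehicle-treated. The labels do not say that each library came from a separate animal, so the p-values below measure only the spread between these samples.

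Liver sinusoidal endothelial cells carry open pores instead of a closed wall, lack an organised basement membrane, and take up waste molecules from blood through scavenger receptors such as Stab1, Stab2, Mrc1 and Fcgr2b. They also pattern the lobule: Wnt2, Wnt9b and Rspo3 from endothelium near the central vein sustain Wnt signalling in neighbouring hepatocytes, and Bmp2 drives hepatocytes to make hepcidin, the iron hormone. During chronic injury, sinusoidal cells can take on a capillary-like state in which genes such as Cd34 and Plvap are higher and sinusoidal receptors such as Stab2 and Lyve1 are lower.

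Total counts per library ranged from 11266420 to 24775863. The share of counts from mitochondrially encoded genes was 34.3% in replicate 3 of the Yap/Taz KO CCl4 group and 30.8% in replicate 5 of the untreated wild type, and 1.98% to 20.1% in the other libraries. Yap1 averaged 1.37 ± 0.75 CPM (its count scaled to a common library size) in Yap/Taz KO hepatocytes after CCl4 (SD, n = 3) and 3.50 ± 3.08 CPM in untreated Yap/Taz KO hepatocytes (n = 4), against 55.2 ± 8.4 CPM in wild type after CCl4 and 51.3 ± 13.4 CPM in untreated wild type (n = 5 each). Wwtr1 was lower in Yap/Taz KO than in wild type by log2 fold changes of −2.06 ± 0.33 (SE) after CCl4 and −2.77 ± 0.31 untreated (edgeR, adjusted p = 0.00116 and 8.42e-05), so both target genes followed the genotype labels. Within Yap/Taz KO, Wwtr1 averaged 4.76 ± 2.20 CPM after CCl4 and 1.87 ± 0.66 CPM untreated. It was called higher with CCl4 (log2 fold change 1.33 ± 0.33, edgeR, adjusted p = 0.00918), and the cause was not tested. In bulk samples such as these, fewer cells of a type and less RNA per cell cannot be told apart.

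The promoters of the members, which were not used to list them, were searched for the letters of 3 factor families. RefSeq (build GRCm38.p6) gave 24 promoters, from 250 bases before to 50 bases after the start, for 20 of the 34 members. The core letters bound by ETS factors, the family of the member Erg, are AGGAAG or CGGAAG. Searched on both strands, they were in 58.3% of the 24 member promoters and in 46.5% of all 32851 promoters of that length. AGGAAG alone was in 58.3% of member promoters and 35.4% of all promoters, and CGGAAG alone in 8.33% and 16.9%. The TEAD letters GGAATG, named for the partners of Yap and Taz, were in 12.5% of member promoters and 14.7% of all, and the GATA letters AGATAA were in 8.33% and 11.2%. A match is a description of these letters and not a bound site. The promoters of Tie1 and Clec4g are printed because each held 3 ETS matches, as did those of Mrc1 and Egfl7, and those of the scavenger receptors Stab1 and Stab2 because their counts are set side by side below. Each runs 5′ to 3′ on the strand of its gene, and capitals mark the ETS letters of either strand.
Tie1 promoter, chr4:118489800-118490099, minus strand: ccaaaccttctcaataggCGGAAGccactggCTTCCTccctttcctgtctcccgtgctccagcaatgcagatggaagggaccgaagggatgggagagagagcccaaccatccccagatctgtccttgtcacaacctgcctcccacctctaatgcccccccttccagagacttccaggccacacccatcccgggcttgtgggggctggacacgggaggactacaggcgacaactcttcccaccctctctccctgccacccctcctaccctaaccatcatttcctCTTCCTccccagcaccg
Clec4g promoter, chr8:3720602-3720901, minus strand: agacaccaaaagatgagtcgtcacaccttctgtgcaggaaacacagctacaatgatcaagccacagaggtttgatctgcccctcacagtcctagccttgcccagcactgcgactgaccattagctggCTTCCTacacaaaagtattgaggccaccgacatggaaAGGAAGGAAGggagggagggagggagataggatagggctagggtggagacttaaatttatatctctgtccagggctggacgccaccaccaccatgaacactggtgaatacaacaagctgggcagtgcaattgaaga
Stab1 promoter, chr14:31168592-31168891, minus strand: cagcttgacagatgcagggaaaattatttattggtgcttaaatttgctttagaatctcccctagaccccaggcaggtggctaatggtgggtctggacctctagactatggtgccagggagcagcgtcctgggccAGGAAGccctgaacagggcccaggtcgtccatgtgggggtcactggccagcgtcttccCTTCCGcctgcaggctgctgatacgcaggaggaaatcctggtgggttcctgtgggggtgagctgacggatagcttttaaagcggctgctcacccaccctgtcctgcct
Stab2 promoter, chr10:87007893-87008192, minus strand: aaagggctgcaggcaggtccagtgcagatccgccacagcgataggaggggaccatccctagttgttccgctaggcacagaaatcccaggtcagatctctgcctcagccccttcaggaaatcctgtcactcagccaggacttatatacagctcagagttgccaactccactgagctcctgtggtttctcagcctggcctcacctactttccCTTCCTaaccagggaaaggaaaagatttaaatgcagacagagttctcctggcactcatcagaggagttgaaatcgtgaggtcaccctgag

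The summed level of the 34 members, in CPM of all counts in a library, was read as a measure of endothelial RNA in each sort. It is not endothelial alone, as Stab1, Mrc1, Lyve1 and Fcgr2b are also known from macrophages. Pecam1, which did not follow the other members, held 62.3% of member counts in replicate 5 of untreated wild type. It held 33.5% in replicate 4 of that group and 53.9% in replicate 2 of untreated Yap/Taz KO. The sums were 353.5, 292.8 and 1643 CPM in replicates 1 to 3 of Yap/Taz KO after CCl4, against 59.2, 27.9, 47.0 and 78.3 CPM in untreated Yap/Taz KO. They were 123.5, 186.3, 79.4, 455.9 and 238.5 CPM in wild type after CCl4, against 20.2, 24.0, 56.2, 79.5 and 47.7 CPM in untreated wild type. Every Yap/Taz KO CCl4 library lay above every untreated Yap/Taz KO library, and in wild type only replicate 3 of the CCl4 group fell inside the untreated range. Without Pecam1, which is described below, and on TMM-scaled library sizes, the lowest wild-type CCl4 library had 64.3 CPM and the highest untreated one 60.6 CPM. The 12 hepatocyte markers summed to between 83690 and 180900 CPM in the 17 libraries, so the members were a trace in each of them. The lowest sum rested on 228 member counts (exact 95% binomial interval 17.7 to 23.0 CPM) and the highest on 24292 counts (1622 to 1664 CPM), intervals that cover counting error only.

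Macrophage and stellate marker sums were higher after CCl4 on average, as the endothelial sum was, while not all other lists followed it. The 18 macrophage markers summed to 178.7, 475.5 and 4358 CPM in Yap/Taz KO after CCl4, against 24.5 to 64.1 CPM in untreated Yap/Taz KO. The same markers summed to 60.6 to 173.1 CPM in wild type after CCl4 and 17.2 to 71.5 CPM in untreated wild type. The 20 stellate cell and fibroblast markers summed to 117.7, 147.9 and 292.6 CPM in Yap/Taz KO after CCl4 and 9.57 to 13.5 CPM in untreated Yap/Taz KO. In wild type they summed to 24.4 to 115.1 CPM after CCl4 and 6.59 to 22.6 CPM untreated. The macrophage list was called in full in Yap/Taz KO with CCl4 (edgeR, 18 of 18 higher, 14 without replicate 3), and 11 of 13 tested stellate and fibroblast genes were called higher, where 12.1% of all genes tested were. In wild type edgeR called 0 macrophage genes (9 at an unadjusted p under 0.05, DESeq2 5, limma voom 0) and 1 stellate gene, Col3a1, where 0.576% of all genes tested were called higher. Bile duct markers, 10 genes with 4 tested, summed to 63.1 to 98.6 CPM in the CCl4 libraries and 25.3 to 77.4 CPM in the untreated ones. Their highest sum was in replicate 1 of wild type after CCl4, where the endothelial sum was 123.5 CPM. The 8 red blood cell and platelet markers averaged 58.8 CPM in Yap/Taz KO after CCl4 and 117.8 CPM untreated. In wild type they averaged 92.0 CPM after CCl4 and 96.1 CPM untreated. Lymphocyte and neutrophil markers reached 7.57 and 27.0 CPM in replicate 3 of Yap/Taz KO after CCl4 and at most 0.696 and 3.16 CPM elsewhere, too few counts for the test. Replicate 3 of the Yap/Taz KO CCl4 group thus held the highest sum of the endothelial, macrophage and stellate lists as well as the highest mitochondrial share, and the part of these other cells in the results below was not tested.

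**Figure D1:**
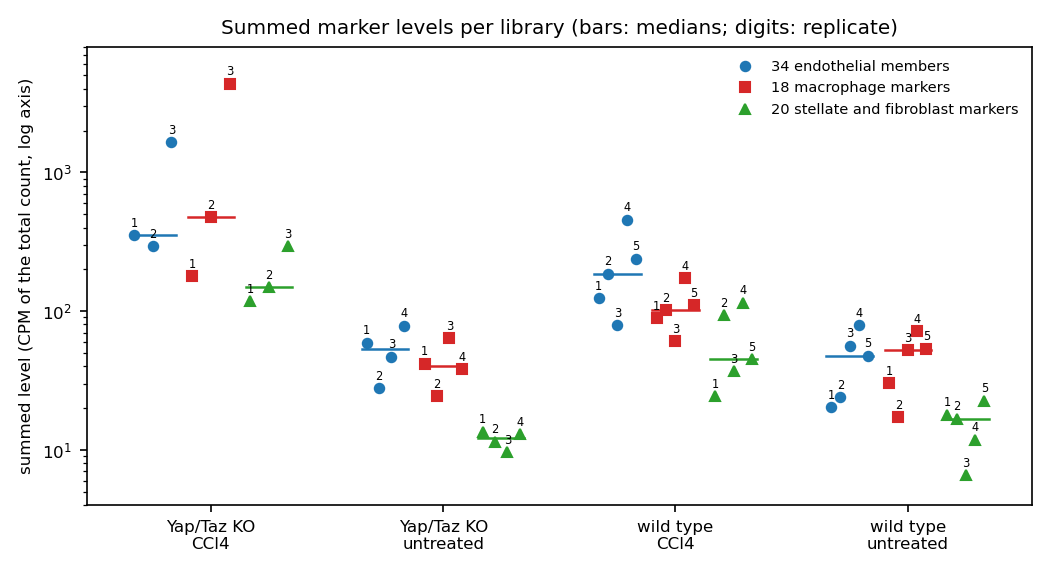
Summed levels of the 34 endothelial members, 18 macrophage markers and 20 stellate and fibroblast markers in each library (log axis, CPM of the total count; digits are replicate numbers and bars are group medians). Replicate 3 of Yap/Taz KO CCl4 is the highest library of each list, at 1643 CPM for the endothelial members and 4358 CPM for the macrophage markers.

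All 34 members had counts in each of the 3 Yap/Taz KO CCl4 libraries, and 32 to 34 had counts in the wild-type CCl4 libraries. Among untreated libraries the number was 17 to 33 in Yap/Taz KO and 22 to 32 in wild type, and the lowest number was in replicate 2 of untreated Yap/Taz KO. Per kilobase of exon, the highest mean levels after CCl4 were those of Aqp1, at 39.5 CPM per kb in Yap/Taz KO and 8.10 CPM per kb in wild type, and of the sinusoidal lectin Clec4g, at 18.5 and 4.55 CPM per kb in the same groups. In untreated wild type the highest mean level was that of Pecam1, at 2.27 CPM per kb, before Aqp1 at 0.999 and Stab2 at 0.666 CPM per kb. The lowest after CCl4 in Yap/Taz KO were Rspo3 at 0.0984 and Wnt9b at 0.255 CPM per kb.

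**Figure D2:**
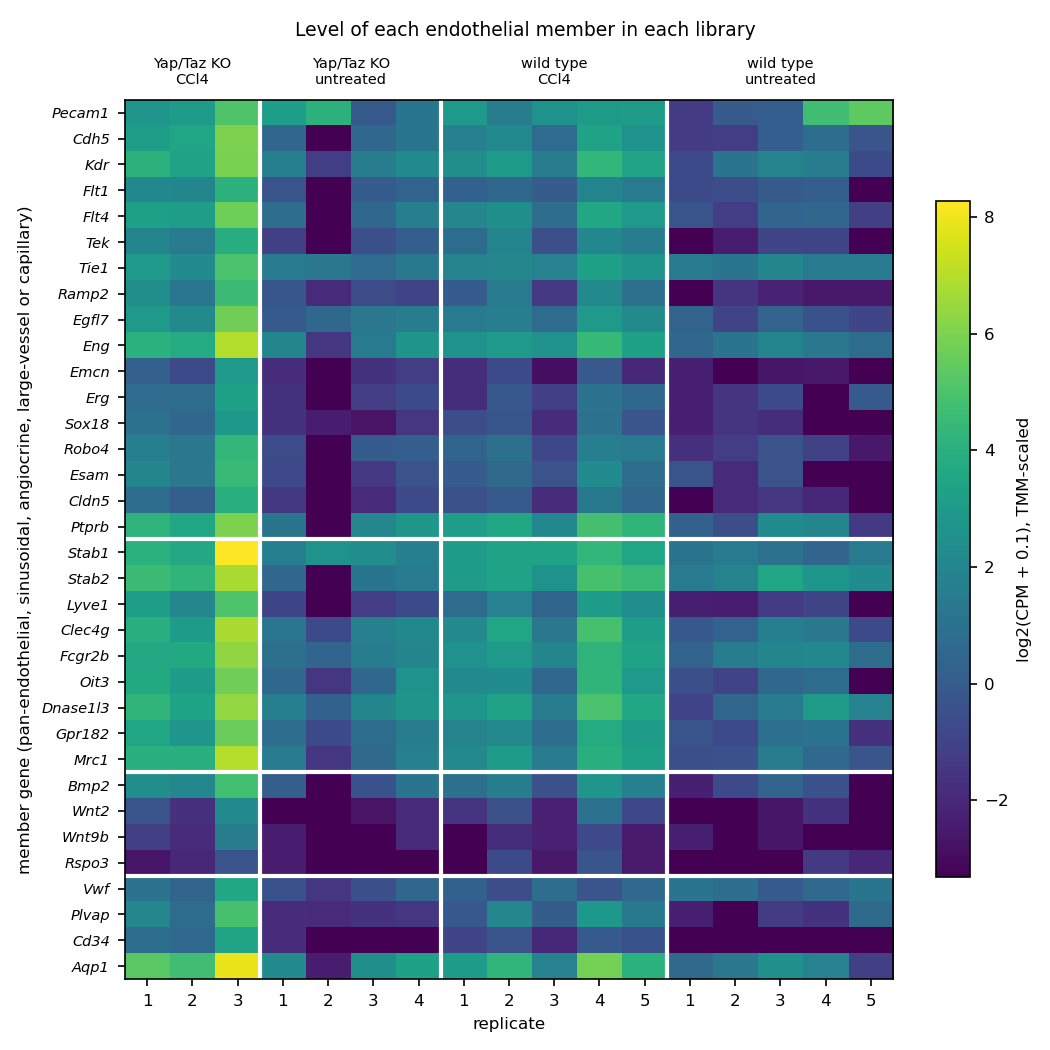
Level of each member in each library as log2(CPM + 0.1) on TMM-scaled library sizes, with members down the page by role (pan-endothelial, sinusoidal, angiocrine, large-vessel or capillary) and libraries across it by group. The Yap/Taz KO CCl4 libraries are the brightest, replicate 3 above all, and Pecam1 at the top is bright in replicates 4 and 5 of untreated wild type (26.02 and 42.57 CPM), where its neighbours are dark.

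In Yap/Taz KO hepatocytes nearly all endothelial members rose with CCl4. Of the 32 members with enough counts to be tested, 31 were higher and none was lower (edgeR quasi-likelihood test, Benjamini-Hochberg adjusted p under 0.05 over 13721 genes), where 12.1% of all genes tested were called higher and 6.96% lower. The median log2 fold change of the members was 3.95, beside 0.01 over all genes tested. For 31 of the 34 members every CCl4 library lay above every untreated library, where 14.4% of all genes tested were separated in that direction. Pecam1 was the tested member that was not called. Wnt9b and Rspo3 had too few counts for the test.

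The 9 sinusoidal members were all called higher in this comparison. Lyve1, a hyaluronan receptor (chr7:110850607-110863239, mm10), stood at 8.85, 3.97 and 33.4 CPM after CCl4 in Yap/Taz KO, against 0.439, 0, 0.330 and 0.503 CPM untreated. Its log2 fold change was 5.52 ± 0.94 (edgeR, adjusted p = 0.000971). Stab2, the stabilin that clears hyaluronan (chr10:86841198-87008025), stood at 24.5, 19.4 and 112.7 CPM after CCl4, against 1.32, 0, 2.14 and 2.68 CPM untreated, a log2 fold change of 5.07 ± 0.86. For both genes the groups do not overlap and replicate 3 is the highest CCl4 library. Stab1, the related stabilin (chr14:31139013-31168641), stood at 16.9, 12.5 and 308.3 CPM, against 3.07, 5.99, 5.06 and 3.10 CPM, a log2 fold change of 4.71 ± 0.83. Replicate 3 of Stab1 is far above the others, and the untreated level of this gene was not near 0. Mrc1, the mannose receptor, and Fcgr2b, an inhibitory Fc receptor, changed by 4.77 ± 0.86 and 3.88 ± 0.69 on the log2 scale. Mrc1, Stab1, Lyve1 and Fcgr2b are also known from macrophages, whose markers moved in the same libraries. Clec4g, Oit3, Dnase1l3 and Gpr182, which are best known from sinusoidal endothelium, had log2 fold changes of 4.17, 3.49, 3.38 and 3.73. Without replicate 3 of Yap/Taz KO CCl4 none of these genes was called (edgeR, adjusted p between 0.0535 and 0.169). Mrc1, Stab1, Lyve1 and Fcgr2b were still called in that fit.

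Of the 17 pan-endothelial members 16 were called higher in the same comparison. Cdh5, the cadherin of endothelial junctions, stood at 8.85, 11.4 and 63.2 CPM after CCl4 in Yap/Taz KO, against 1.32, 0, 1.37 and 2.18 CPM untreated, and its log2 fold change was 4.49 ± 0.88 (edgeR, adjusted p = 0.00234). The 3 CCl4 libraries of Cdh5 lay above all 4 untreated ones. The VEGF receptors Kdr, Flt1 and Flt4 had log2 fold changes of 3.44, 3.57 and 3.95. The angiopoietin receptor Tek and its relative Tie1 had 3.83 and 2.66, the smallest fold change of a called pan-endothelial member being that of Tie1, which kept 1.54 to 2.77 CPM in untreated Yap/Taz KO. Egfl7, Robo4, Emcn and the ETS factor Erg had 3.56, 3.76, 3.94 and 3.98, and Ramp2 and the phosphatase gene Ptprb 4.42 and 3.23. The tight junction gene Cldn5, the adhesion gene Esam and the transcription factor Sox18 had 4.67, 4.73 and 4.43. Endoglin (Eng), a co-receptor for BMP ligands, reached 16.9, 14.1 and 120.3 CPM after CCl4, against 3.86, 0.257, 2.64 and 6.28 CPM untreated, a log2 fold change of 3.94 ± 0.80.

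All 4 large-vessel or capillary members were called higher in Yap/Taz KO after CCl4. Cd34 (chr1:194938819-194961279), a sialomucin of capillaries, stood at 1.73, 1.47 and 10.9 CPM, against 0.176, 0, 0 and 0 CPM untreated, with a log2 fold change of 6.22 ± 1.15 (edgeR, adjusted p = 0.00276). Plvap, the gene of the pore diaphragm, stood at 4.07, 1.61 and 29.8 CPM against 0.176, 0.171, 0.220 and 0.251 CPM, a change of 5.81 ± 1.18. The water channel Aqp1, which bile duct and red blood cells also make, stood at 39.4, 26.5 and 245.8 CPM against 4.65, 0.0856, 5.33 and 9.72 CPM, a change of 4.39 ± 1.07. In these 3 genes the groups do not overlap. Vwf, the clotting factor stored by large-vessel endothelium, had 2.03, 1.22 and 11.7 CPM against 0.659, 0.257, 0.605 and 1.34 CPM, and it was called (2.79 ± 0.69) although its groups overlap. Of the angiocrine signals, Bmp2 had 5.14, 3.97 and 26.7 CPM after CCl4, against 1.05, 0, 0.660 and 2.18 CPM untreated, a log2 fold change of 3.61 ± 1.04. Wnt2 had 75 counts in the 3 CCl4 libraries and 3 in the 4 untreated ones, a depth-adjusted ratio of 28.1 (exact 95% interval for counting error 9.27 to 140), and it was called. Rspo3 had 14 counts against 2, a ratio of 7.88 (1.81 to 71.4), without a test, and Wnt9b had 48 against 4.

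Replicate 3 carried much of this contrast. Without it 12 of the 32 members were called higher, where 11.7% of all genes tested were called in either direction, and the median log2 fold change of the members was 2.45. The 12 were Cdh5, Tie1, Ramp2, Eng, Sox18, Stab1, Stab2, Lyve1, Fcgr2b, Mrc1, Plvap and Cd34, each of which was also called with all 17 libraries. Stab2 then had a log2 fold change of 3.82 (edgeR, adjusted p = 0.00644), Lyve1 4.26 (0.0064) and Stab1 1.77 (0.00559). The 20 other tested members did not pass without that library, among them Kdr at 2.34 (adjusted p = 0.0744) and Clec4g at 2.25 (0.0965). Leaving out the libraries with the 2 highest mitochondrial shares gave 14 called members, and leaving out any other single library gave 28 to 31.

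In wild-type hepatocytes the members were also mostly higher after CCl4, but few passed the test. Lyve1 and Ramp2 were called higher and none was lower among the 32 tested, where 0.576% of all genes tested were called higher and 0.277% lower (0.853% in all). The median log2 fold change of the members was 2.60, beside −0.01 over all genes tested. At an unadjusted p under 0.05 there were 28 members, and DESeq2 called 19 where it called 3.63% of genes. For 8 of the 34 members every CCl4 library lay above every untreated one, where 3.15% of all genes tested were so separated.

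Lyve1 stood at 1.56, 3.47, 1.25, 8.44 and 5.11 CPM in wild type after CCl4, against 0.101, 0.0834, 0.314, 0.442 and 0 CPM in untreated wild type. Its log2 fold change was 4.30 ± 0.84 (edgeR, adjusted p = 0.0215), and the lowest CCl4 library was above the highest untreated one. Ramp2 (chr11:101246028-101259546), the partner of the adrenomedullin receptor, stood at 0.935, 2.77, 0.285, 4.64 and 1.86 CPM, against 0, 0.250, 0.126, 0.0737 and 0.0723 CPM, a log2 fold change of 4.21 ± 0.89 (adjusted p = 0.0326). Its groups do not overlap, by a narrow margin between replicate 3 with CCl4 and replicate 2 without. Cd34 had 57 counts over the 5 CCl4 libraries and 0 over the 5 untreated ones. Against a floor of 3 counts over the untreated group, that is at least 11.7-fold higher, and all 5 CCl4 libraries lay above all untreated ones, while the edgeR adjusted p was 0.0673. Flt4, Tek, Egfl7, Eng and Stab1 were the other members with separated groups, with log2 fold changes of 2.93, 3.62, 2.27, 2.19 and 2.51 and adjusted p between 0.0804 and 0.142.

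Members with values that did not pass in wild type include the best known sinusoidal genes. Stab2 stood at 8.35, 10.5, 6.07, 29.5 and 22.1 CPM after CCl4, against 2.62, 3.59, 11.5, 6.71 and 4.77 CPM untreated, a log2 fold change of 1.38 ± 0.64 (edgeR, adjusted p = 0.33) with overlapping groups. Among pan-endothelial members with overlapping groups, apart from Pecam1, estimates ran from 0.93 for Tie1 to 3.13 for Cldn5, and Emcn had 33 counts after CCl4 against 3 untreated, a ratio of 6.75 (95% interval for counting error 2.12 to 34.4). Clec4g had 2.78 ± 0.82, Oit3 3.19 ± 0.90 and Dnase1l3 1.96 ± 0.74 on the log2 scale. Aqp1 stood at 8.48, 19.7, 3.46, 58.0 and 16.7 CPM, against 1.51, 2.34, 5.53, 3.39 and 0.361 CPM, a log2 fold change of 2.99 ± 0.91 (adjusted p = 0.137). Replicate 4 is the highest CCl4 library of Stab2, Clec4g, Oit3, Dnase1l3 and Aqp1, and replicate 3 the lowest. Pecam1 and Vwf had negative estimates, −1.13 ± 1.02 and −0.58 ± 0.56, neither of which passed.

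The wild-type calls were sensitive to single libraries, to the scaling and to the tool. With limma voom neither Lyve1 nor Ramp2 was called (adjusted p = 0.0795 and 0.145), and Stab1 and Cd34 were called in their place. Without replicate 3 of Yap/Taz KO CCl4, which is in neither of the groups compared but shares the fit, 6 members were called: Lyve1, Ramp2, Egfl7, Stab1, Mrc1 and Cd34. Neither Lyve1 nor Ramp2 was called without replicate 5 of wild type after CCl4 or without replicate 1, 2 or 3 of untreated wild type, and Lyve1 remained the only called member without replicate 2 or 4 of the CCl4 group or replicate 4 or 5 of the untreated group. With library totals in place of TMM factors 19 members were called, while the median over all genes shifted to 0.38 and 94.8% of called genes were higher, against 67.5% with TMM factors.

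**Figure D3:**
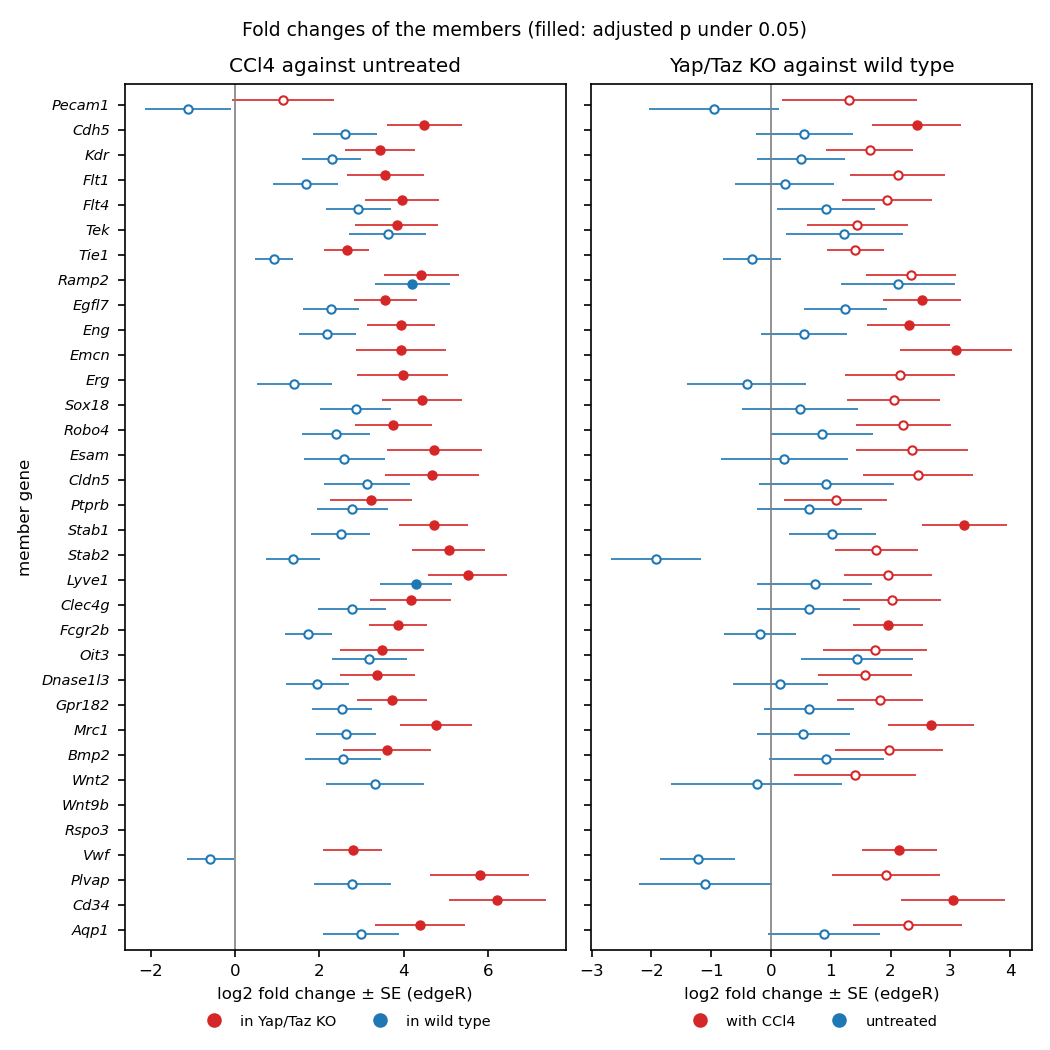
edgeR log2 fold changes ± SE of the members, CCl4 against untreated on the left and Yap/Taz KO against wild type on the right, with filled points for adjusted p under 0.05. Red points in the left panel are filled for all members shown but Pecam1, from 2.66 for Tie1 to 6.22 for Cd34, and only Lyve1 and Ramp2 are filled in blue. Wnt9b and Rspo3 are not drawn, nor are fold changes against a group with 3 or fewer counts (Emcn and Cd34 against untreated wild type, Wnt2 against untreated Yap/Taz KO).

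After CCl4 the members were higher in Yap/Taz KO than in wild type, and 9 of the 32 tested were called, all higher, where 7.62% of all genes tested were called higher and 4.21% lower. The 9 were Cdh5, Egfl7, Eng, Emcn, Stab1, Fcgr2b, Mrc1, Vwf and Cd34. The median log2 fold change of the members was 2.04, beside 0.04 over all genes tested. They were 4 of 17 pan-endothelial, 3 of 9 sinusoidal, 0 of 2 angiocrine and 2 of 4 large-vessel members, and the smallest estimate among the 32 was 1.09, for Ptprb. Stab1 had the largest fold change, 3.23 ± 0.71 (edgeR, adjusted p = 0.00836), from 16.9, 12.5 and 308.3 CPM in Yap/Taz KO, against 8.23, 10.2, 10.1, 20.2 and 11.1 CPM in wild type. Apart from replicate 3 of Yap/Taz KO, the Stab1 levels of the groups overlap. Flt1, Mrc1 and Cd34 were the 3 members whose Yap/Taz KO libraries all lay above all wild-type libraries, where 10.1% of all genes tested were so separated. That count, 3 of the 32 tested, is near the share over all genes and is no trait of the members. Mrc1 stood at 16.5, 16.1 and 125.0 CPM in Yap/Taz KO, against 4.30, 8.38, 2.71, 15.9 and 9.56 CPM in wild type, a log2 fold change of 2.68 ± 0.72. Cd34 stood at 1.73, 1.47 and 10.9 CPM against 0.436, 0.693, 0.143, 0.878 and 0.658 CPM, a log2 fold change of 3.05 ± 0.87.

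Without replicate 3 of Yap/Taz KO CCl4 none of the 9 was called. Their log2 fold changes then lay between 0.30 for Stab1 and 1.504 for Cd34 (edgeR, adjusted p between 0.433 and 0.754), and 2.94% of all genes tested were called in either direction. In that same fit the median over the members was 0.56. The count was 12 without replicate 1 of that group and 11 without replicate 2. It was 1 to 3 without replicate 1, 2, 3 or 5 of wild type after CCl4, and 5 without replicate 3 of untreated Yap/Taz KO. DESeq2 called 12 members, of which 8 were among the 9, where it called 15.4% of genes. The count was 3 with unscaled totals, 1 with limma voom and 1 with the compared groups only.

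Untreated Yap/Taz KO and wild type held endothelial RNA at overlapping levels, with sums of 27.9 to 78.3 CPM in Yap/Taz KO and 20.2 to 79.5 CPM in wild type. None of the 32 tested members was called by edgeR, DESeq2 or limma voom, where edgeR called 0.933% of all genes tested (0.583% higher, 0.350% lower), and 2 members had an unadjusted p under 0.05, Ramp2 and Stab2. The median log2 fold change of the members was 0.59. Stab2 stood at 1.32, 0, 2.14 and 2.68 CPM in untreated Yap/Taz KO, against 2.62, 3.59, 11.5, 6.71 and 4.77 CPM in untreated wild type, a log2 fold change of −1.92 ± 0.75 (edgeR, adjusted p = 0.397). Replicate 4 of Yap/Taz KO and replicate 1 of wild type are almost level, and the other libraries do not overlap. Stab1, in contrast, was the one member with every Yap/Taz KO library above every wild-type library, at 3.07, 5.99, 5.06 and 3.10 CPM against 2.12, 2.59, 1.88, 1.25 and 2.67 CPM, where 1.76% of all genes tested were so separated. Its log2 fold change was 1.03 ± 0.73 (adjusted p = 0.788). A p that misses the threshold does not show that the genotypes were alike.

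The difference between the CCl4 effects of the genotypes was tested as an interaction. No member was called by edgeR or limma voom (edgeR called 1.09% of all genes tested, 0.794% with a positive difference and 0.299% with a negative one), 5 had an unadjusted p under 0.05, and DESeq2 called 2, Stab2 and Vwf, where it called 5.87% of genes. Stab2 had a difference of 3.69 ± 1.03 on the log2 scale, Yap/Taz KO minus wild type (edgeR, adjusted p = 0.0801), and Vwf one of 3.37 ± 0.89 (adjusted p = 0.0665). Both passed when replicate 1 of Yap/Taz KO CCl4 was left out (adjusted p = 0.0372 and 0.0246), and Vwf alone passed without replicate 2 (0.0453). Without replicate 3 neither passed (2.44 and 1.76, adjusted p = 0.34 and 0.35), and the median difference over the members was −0.09, beside 1.48 with all libraries.

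The make-up of the endothelial counts was steadier than their amount after CCl4. Sinusoidal members held 44.5%, 43.5% and 50.2% of the member counts in Yap/Taz KO after CCl4, and 43.3%, 43.7%, 46.1%, 45.6% and 45.6% in wild type after CCl4. Large-vessel or capillary members held 13.7% to 15.6% in Yap/Taz KO and 8.85% to 16.4% in wild type, mostly Aqp1, which alone held 12.6% and 10.8% of the counts pooled over those groups. The angiocrine signals held 1.82% to 2.02% in Yap/Taz KO and 1.32% to 2.61% in wild type. Pan-endothelial members held 32.4% to 40.8% in Yap/Taz KO after CCl4 and 35.7% to 44.8% in wild type after CCl4. The untreated libraries varied more: sinusoidal members held 30.5% to 43.9% in untreated Yap/Taz KO and 20.4% to 47.8% in untreated wild type. The lowest of these values were in replicate 2 of untreated Yap/Taz KO and replicate 5 of untreated wild type, both of which had a large share of Pecam1.

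**Figure D4:**
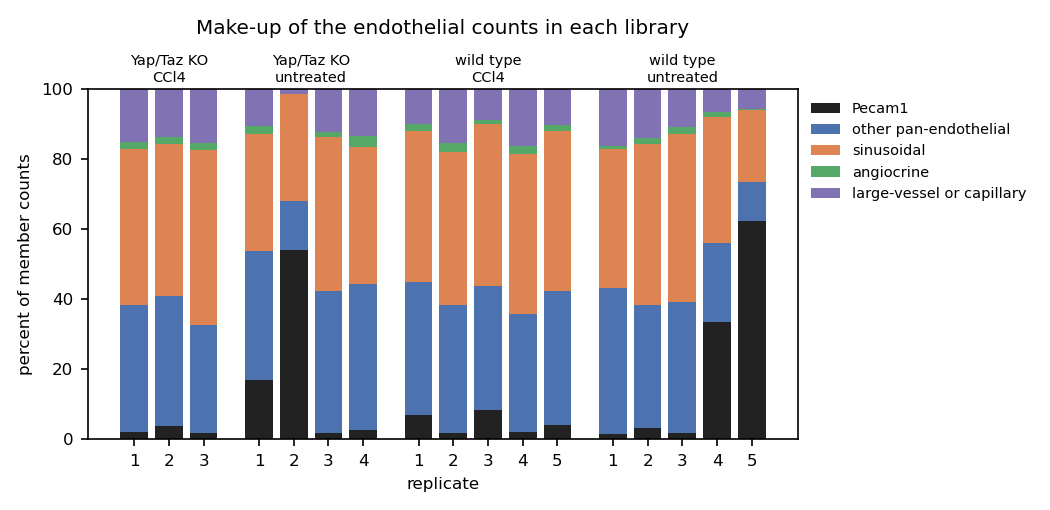
Share of the member counts in each library that came from Pecam1, the other pan-endothelial members and the sinusoidal, angiocrine and large-vessel or capillary members (stacked bars, percent). The CCl4 libraries look more alike than the untreated ones. Pecam1 alone takes 53.9% in replicate 2 of untreated Yap/Taz KO and 33.5% and 62.3% in replicates 4 and 5 of untreated wild type.

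Within the sinusoidal group the stabilins did not keep 1 ratio. Stab1 counts over Stab2 counts were 0.689, 0.646 and 2.74 in Yap/Taz KO after CCl4 and 2.33, 2.36 and 1.16 in untreated Yap/Taz KO, with no Stab2 count beside 70 Stab1 counts in replicate 2 of untreated Yap/Taz KO. The ratio was 0.985, 0.970, 1.67, 0.683 and 0.501 in wild type after CCl4 and 0.808, 0.721, 0.164, 0.187 and 0.561 in untreated wild type. All 3 ratios of untreated Yap/Taz KO were above all 5 of untreated wild type, and replicate 3 of Yap/Taz KO CCl4 stood apart from the other 2 libraries of its group. The ratio was chosen after its values were seen and was not tested, and Stab1 is also expressed by macrophages, whose markers summed to 4358 CPM in that replicate.

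Pecam1, the platelet and endothelial adhesion molecule often used alone as an endothelial marker (chr11:106654217-106750628, mm10), broke the pattern of the group. It stood at 6.58, 8.33 and 33.7 CPM in Yap/Taz KO after CCl4, against 8.96, 17.5, 0.879 and 2.18 CPM in untreated Yap/Taz KO. In wild type it stood at 7.61, 2.90, 5.85, 7.81 and 8.32 CPM after CCl4, against 0.302, 0.917, 1.01, 26.02 and 42.57 CPM untreated. The highest of these 17 values was thus in an untreated wild-type library, replicate 5, in which Cdh5 was at 0.723 CPM, Kdr at 0.506 CPM and Flt1, Tek and Cldn5 at 0. In replicate 2 of untreated Yap/Taz KO, where Pecam1 was at 17.5 CPM, Cdh5, Flt1, Flt4, Tek, Ptprb and Stab2 had no count. Over the 17 libraries the log2 level of Pecam1 correlated with that of the other 33 members at a Pearson r of 0.311 (Spearman rho 0.154), whereas Fcgr2b, Dnase1l3 and Mrc1 reached an r of 0.961, 0.955 and 0.952 and the next lowest member, Vwf, 0.511. Leaving out the 2 libraries farthest from the median gave an r of 0.0811 for Pecam1 and 0.148 for Vwf. These correlations describe libraries that share depth, group and sort.

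**Figure D5:**
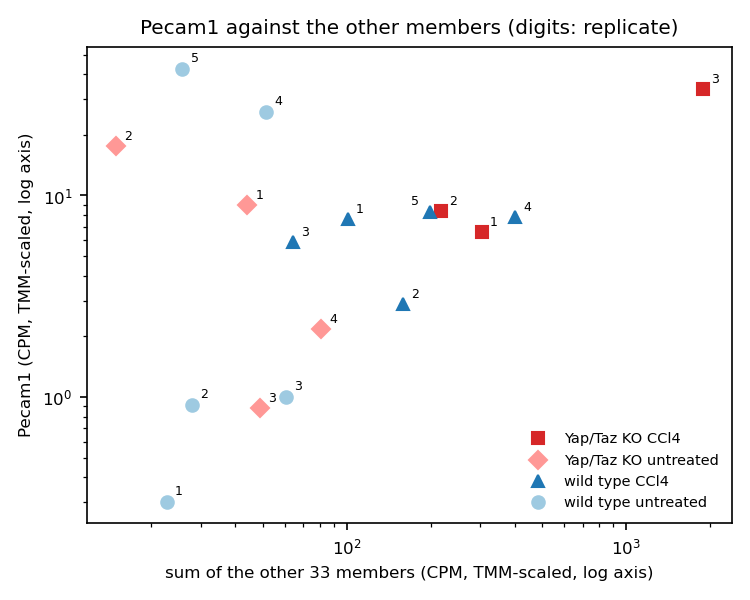
Level of Pecam1 against the summed level of the other 33 members in each library (log axes, CPM on TMM-scaled library sizes; digits are replicate numbers). The CCl4 libraries of both genotypes lie between 2.90 and 33.7 CPM of Pecam1, while replicates 4 and 5 of untreated wild type, at 26.02 and 42.57 CPM, sit at the upper left.

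Vwf also kept a level that did not follow the other members. In wild type it stood at 1.12, 0.567, 1.64, 0.732 and 1.47 CPM after CCl4, against 2.12, 1.75, 0.879, 1.47 and 2.17 CPM untreated. The groups overlap, and replicate 4 with CCl4, which had the highest endothelial sum of its group, was near the bottom. Per kilobase its mean level in wild type was 0.0689 CPM after CCl4 and 0.105 CPM untreated. Tie1 had 3.39 to 9.86 CPM in wild type after CCl4, against 2.17 to 3.96 CPM untreated, and its wild-type log2 fold change was 0.93 ± 0.44 (edgeR, adjusted p = 0.344). The angiocrine Wnts and Rspo3 had few counts in wild type: Wnt2 had 68, Wnt9b 18 and Rspo3 27 over the 5 CCl4 libraries, against 4, 2 and 6 over the 5 untreated ones.

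Endothelial genes outside the 34 gave a similar picture with fewer calls. They were listed with earlier results of these data known and were read in the same libraries, so they are not independent support. Of 28 tested genes of a second endothelial list, 22 were called higher in Yap/Taz KO after CCl4, where 12.1% of all genes tested were. The median log2 fold change of the 28 was 3.73. In wild type edgeR called 0 of them, where 0.576% of all genes tested were called higher. There 17 had an unadjusted p under 0.05, DESeq2 called 8 and limma voom 0, and the median was 2.08. Without replicate 3 the 22 became 5, in the fit whose share of called genes is given above. Cd93, a lectin-like receptor, Thbd (thrombomodulin), Mmrn2 and Clec1b had log2 fold changes of 5.10 ± 0.64, 6.23 ± 1.14, 4.23 ± 0.88 and 6.24 ± 1.32 in Yap/Taz KO. Cd93, Clec1b, Thbd and Fam167b were called higher in Yap/Taz KO than in wild type after CCl4, where 7.62% of all genes tested were. Cd93 was the one gene of that list with a called difference of CCl4 effects (3.42 ± 0.80, edgeR, adjusted p = 0.0492). Thbd, Cd93 and Clec1b are also made by myeloid cells, and the part of such cells in these calls was not tested. Nrp1 and S1pr1, chosen after their values were seen, did not follow: Nrp1 averaged 59.3 ± 5.4 CPM in Yap/Taz KO after CCl4 and 67.2 ± 32.3 CPM untreated, and 64.1 ± 24.0 CPM in wild type after CCl4 and 63.1 ± 11.2 CPM untreated.

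The signals around the endothelium were read from lists of ligands and of hepatocyte target genes. Of 7 tested VEGF, angiopoietin and related ligands, Hgf, a growth factor made by sinusoidal endothelium and stellate cells, was the one called higher in Yap/Taz KO after CCl4 (edgeR, adjusted p = 0.00237), at 1.02 to 8.74 CPM against 0 to 0.0878 CPM untreated. The untreated level rests on too few counts for a fold change. This 1 called gene of 7, or 14.3%, is near the 12.1% of all genes tested that were called higher. In wild type none was called and 1 had an unadjusted p under 0.05. Of 14 tested Wnt targets of pericentral hepatocytes, Lect2, Axin2, Gulo and Nkd1 were called higher in Yap/Taz KO after CCl4, with log2 fold changes of 1.89, 2.16, 1.08 and 2.45, where 12.1% of all genes tested were called higher. Without replicate 3, 2 of the 14 were called, where 11.7% of all genes tested were called in either direction, so that share is near the background. Slc1a2, named after its values were seen, had the estimate farthest from 0 in the list, a log2 fold change of −3.61 ± 1.39, and did not pass (adjusted p = 0.084). Cyp2e1, the enzyme that activates CCl4 and itself a Wnt target, averaged 499 ± 112 CPM in Yap/Taz KO after CCl4, against 2026 ± 644 CPM in wild type after CCl4, a log2 fold change of −2.02 ± 0.61 (adjusted p = 0.0417). None of the 14 was called for CCl4 in wild type by edgeR (4 at an unadjusted p under 0.05) or DESeq2, and 1 by limma voom. Of 9 tested BMP targets edgeR called none for CCl4 in either genotype. Over all genes tested it called 19.0% in Yap/Taz KO and 0.853% in wild type. In edgeR 2 of the 9 had an unadjusted p under 0.05 in Yap/Taz KO and 0 in wild type. Limma voom called none, and DESeq2 called 1 higher and 1 lower in Yap/Taz KO and none in wild type. After CCl4, Hamp2, a hepcidin gene, was lower in Yap/Taz KO than in wild type (−4.10 ± 0.92) and Id3 was higher (1.87 ± 0.54), and without replicate 3 no gene of either list was called in that comparison.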

How the data were processed

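Hepatocytes were sorted by FACS, and libraries were made from total RNA (NEBNext Ultra II RNA kit), as the labels' protocols state. The deposited values are raw counts per Ensembl gene and sample, whole numbers without normalization. The submitters' processing notes name STAR 2.4.1d, mm10, FastQC, DESeq2, edgeR and limma. Which tool, strand setting and annotation gave the counts is not given in the sources used here, so reads of overlapping or antisense genes cannot be told apart.

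From the deposited counts, edgeR 4.0.16 in R 4.3.3 fitted 1 quasi-likelihood model to the 17 samples with a mean per group (filterByExpr, at least 10 counts and 15 in total, TMM factors, robust spread). P-values were adjusted by Benjamini-Hochberg over the 13721 genes tested, and 0.05 was the threshold. Levels of single genes are CPM on TMM-scaled library sizes, and sums over a list are CPM of the unscaled total count. A standard error is the size of the log2 fold change divided by the root of its F statistic. Where a group held 3 counts or fewer, the count ratio or a floor of 3 counts is given. No 2 replicates agreed within sampling noise. Symbols and positions are from GENCODE M21 (mm10), which matched 22914 of the 23461 identifiers. DESeq2 1.42.0, limma 3.58.1 (voom), other scalings and filters, a replicate block and leaving out libraries were alternatives. The 34 members and all other lists (182 of 185 entries matched) were chosen with earlier results of these data known. All members may be named, and of other lists up to 4 called genes per comparison with the smallest adjusted p.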

Additional observations from a re-analysis of the deposited data

Results flagged for a closer look

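Values that stood apart from the other samples of their group by Dixon's criterion were found in 7 of the 116 sets checked. About 6 would come by chance (1 in 20). The sets were the member levels, their sum and the shares of the role groups, each within a group. Yap/Taz KO CCl4, with 3 libraries, was not checked, so its replicate 3 could not be flagged. In wild type after CCl4, replicate 4 was the highest library for Eng at 21.4 CPM (the others 5.92 to 9.95 CPM), Esam at 4.78 CPM (0.678 to 1.59 CPM) and Stab1 at 20.2 CPM (8.23 to 11.1 CPM). That library also had the highest endothelial sum of its group. In untreated Yap/Taz KO, replicate 1 was the one library with counts of Cd34, at 0.176 CPM, and of Rspo3, at 0.0878 CPM. In untreated wild type, Plvap stood at 1.52 CPM in replicate 5 (the others 0 to 0.314 CPM) and Wnt2 at 0.221 CPM in replicate 4 (0 to 0.0628 CPM).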

How the results depend on the processing

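Member counts for CCl4 in wild type (2), CCl4 in Yap/Taz KO (31), Yap/Taz KO against wild type after CCl4 (9) and untreated (0), and the difference of CCl4 effects (0) kept within 1.5 times under RLE factors, a CPM filter and without mitochondrial genes. The wild-type count was 19 with unscaled totals, 19 with DESeq2, 7 with the compared groups only and 4 without the 2 libraries of highest mitochondrial share. The Yap/Taz KO count was 14 without those 2 libraries. After CCl4, Yap/Taz KO against wild type gave 3 with unscaled totals, 4 with no filter, 1 with limma voom, 1 with the compared groups only and 0 without those 2 libraries. DESeq2 called 2 for the difference of effects. Leaving out each replicate gave 0 to 6, 12 to 31 and 0 to 12 for the called comparisons, 0 in untreated hepatocytes and 0 to 2 for the difference. The labels say that replicate numbers do not pair samples: over 22 same-number pairs the correlation of deviations was −0.257 to 0.199, and 1 of 17 libraries correlated best with its own number. With the number as a block the counts were 1, 31, 0, 0 and 0.

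Without Mrc1, Aqp1 and Cd34, which other cell types express, the mean large-vessel share was 2.22% (14.8% with them) in Yap/Taz KO after CCl4, 1.84% (9.56%) in untreated Yap/Taz KO, 2.82% (12.2%) in wild type after CCl4 and 5.49% (10.8%) in untreated wild type. Aqp1 and Cd34 are themselves large-vessel members, so a lower share follows from leaving them out. Stab1, Lyve1 and Fcgr2b, also known from macrophages, were kept, so the part of other cells in these shares was not tested. The pan-endothelial share became 46.1% (37.2%) in Yap/Taz KO after CCl4 and 47.6% (40.9%) in wild type after CCl4, the sinusoidal share 47.2% (44.9%) in wild type after CCl4, and the angiocrine share 2.41% (1.95%) in Yap/Taz KO after CCl4. Over all alternatives, single called members kept the call in 38 refits and lost it in 15 for wild type, 774 and 57 for Yap/Taz KO, and 148 and 92 for the genotypes after CCl4, and none changed sign. The cause of these changes was not tested. Depth limits the members at a few counts (Wnt2, Wnt9b, Rspo3, Emcn, Cd34).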

Other observations

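Among 12097 genes with a mean of at least 1 CPM, those whose log2 level was most like the summed member level over the 17 libraries were Trim35 (Pearson r 0.977), Rcn1 and Igfbp7 (0.970 each), Sema3f (0.967), Ccdc80 (0.965), Pkm (0.964), Adcy4 (0.963), and Cd5l, Fabp4 and Lbh (0.961 each). After the group means were subtracted, the order was led by Fcna (0.946), Trim35 (0.931), Rgs5 (0.924), C1qb (0.923) and Vsig4 (0.922). Fcna, C1qb, Vsig4 and Cd5l are known from Kupffer cells, Fabp4 and Adcy4 from endothelium, and Rgs5 from pericytes. These libraries share depth, group and sort, so the values are a description.

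The genes most like Pecam1 over the 17 libraries, picked after its values were seen, were Gm10800 (r 0.894), Mgat4b (0.881) and Gm42418 (0.862) of 12125 compared. Gm42418 stood at 10840 CPM in replicate 3 of Yap/Taz KO after CCl4, 11160 CPM in replicate 2 of untreated Yap/Taz KO, and 52650 and 27920 CPM in replicates 4 and 5 of untreated wild type, against 535.7 to 9052 CPM in the other libraries. Except for replicate 3 of Yap/Taz KO after CCl4, these are the libraries in which Pecam1 took the largest share of the member counts. The part of this in the Pecam1 values was not tested.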
